A study of Mus musculus with 20 samples.

Results

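Genes for cell adhesion and axon guidance were described by their edited RNA sites in mouse cerebellum, hippocampus and cortex. The genes were chosen by the first letters of their symbols, which cover cadherins and protocadherins, semaphorins and plexins, Eph receptors and ephrins, Slit, Robo, netrin and Unc5 genes, contactins and their associated proteins, neurexins, neuroligins, Cadm, Ncam, Nrcam, Lingo, Flrt, Lrfn, Lrrtm, Lrrc4, nectins, teneurins, and the IgLON genes Lsamp, Negr1 and Ntm. In all, 70 of the 3731 genes named in the site lists were members, and they held 688 of 25978 sites. The selection left out 3 symbols, which are not analysed here. None of the members was an ephrin, a Slit ligand, a secreted netrin, a Flrt gene or a nectin, and the first letters of Slit and netrin genes led only to the Slitrk genes and to Ntng2.

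The mice carried a tamoxifen-inducible transgene for APOBEC1-YTH, in which the cytidine deaminase APOBEC1 is joined to the YTH domain, a reader of N6-methyladenosine (m6A) in RNA. Cytidines beside an m6A are deaminated to uridine and appear as C-to-T changes in RNA-seq. Tamoxifen was given to both genotypes at 20 mg/kg, once every 24 h over 5 days, and tissue was collected 7 days after the last dose. The APOBEC1-YTH group had 4 bulk poly(A) RNA-seq libraries each from cerebellum, hippocampus and cortex, from the same 4 animal numbers. The APOBEC1-YTHmut group, the background control for editing, had 3 libraries from cerebellum, 2 from hippocampus and 3 from cortex, from 3 animal numbers. Age, sex, strain and the promoter of the transgene are not given in the labels. Each region is represented by 1 list of sites, with 1 value per site and no value per animal, no read depth and no APOBEC1-YTHmut value. The value was read as the percentage of reads that were edited at that position, over the combined APOBEC1-YTH libraries, and is called the editing level. With 1 list per region there is no replicate error and no test, and the differences below describe these lists.

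Axons are steered by guidance ligands such as semaphorins, which act on plexins on the growth cone, and by ephrins, Slits and netrins, which act on Eph, Robo and Unc5 receptors. Contact between cells is held by cadherins and by membrane proteins of the immunoglobulin superfamily, and synapses are bridged by pairs such as presynaptic neurexins with postsynaptic neuroligins or Lrrtm proteins. m6A is most often placed in the last exon and the 3′ untranslated region of messenger RNAs, at an adenosine that is followed by a cytidine.

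The bases around a site show what is being counted, an edited cytidine with an adenosine before it. RefSeq promoter windows of GRCm38.p6, the assembly of mm10, overlapped 63 of the 25978 sites of all genes, 2 of them member sites. Both lie in Cadm2, which encodes a synaptic adhesion protein of the SynCAM family, in a window that belongs to 1700010K23Rik on the opposite strand. They are shown 5′ to 3′ on the minus strand, the strand of Cadm2, with the edited cytidine in capitals. The first covers chr16:66657036-66657064 and was listed in cortex only, at 1.61%. The second covers chr16:66657136-66657164 and was listed in hippocampus only, at 2.08%.
Cadm2 site at 66657050: gtacaaaatgttaaCagttgttatctttc
Cadm2 site at 66657150: atgatcctcgtagaCatgtttttatattc
The sites lie 1634 and 1734 nt from the annotated 3′ end of Cadm2, with the nearest other listed site 100 and 70 nt away. The motifs AAC and GAC, ending at the edited base, were searched on the listed strand. All 63 sites in such windows had C at the listed position, and 63 of 63 had AAC or GAC ending there. Whether the site caller kept only cytidines in this context is not known, so the match may have been fixed by the calling. In the same windows, 18.2% of all cytidines follow an adenosine, whatever base stands before it. AAC or GAC stands somewhere on the gene strand in 99.7% of the 32817 windows of 300 nt and on either strand in 100% of them, so a match somewhere in a window is common.

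The regional origin of the lists was read from marker genes. Of 5 cerebellar markers, 3 were listed, led by the Purkinje cell gene Calb1, with 45 sites in cerebellum, none in hippocampus and 1 in cortex. The hippocampal marker Fibcd1 had 20 sites in hippocampus and none in the other lists, and the cortical marker Cux2 had 6 sites in cortex alone. Other markers were not limited to their region: Rora had 37 sites in cerebellum and 5 in cortex, and the hippocampal marker Wfs1 had 1 site in cerebellum, 10 in hippocampus and 9 in cortex. The markers Pcp2, Gabra6, Prox1 and Rorb had no site. Editing needs a transcript to be present, the lists hold no expression values, and in bulk tissue fewer cells that express a gene and less RNA per cell cannot be told apart.

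Sites in adhesion and guidance genes were fewest in cerebellum. They numbered 193 in cerebellum, 362 in hippocampus and 523 in cortex, which is 1.69%, 2.69% and 2.93% of the sites in these lists. Of the 70 genes, 26 (37.1%) had a site in cerebellum, against 59.7% of all 3731 genes. In hippocampus 55 genes (78.6%) were listed, against 68.3% of all genes, and in cortex 62 (88.6%), against 84.8%. Thus the members lay below the share of all genes in cerebellum, above it in hippocampus and near it in cortex. A site in every region was found for 24 genes (34.3%), against 43.1% of all genes. A further 24 genes (34.3%, against 17.7% of all genes) were listed in hippocampus and cortex without cerebellum. Cortex alone held 13 (18.6%, against 17.4%), hippocampus alone 7 (10%, against 5.23%), cerebellum and cortex 1 (1.43%, against 6.62%), and cerebellum alone 1, Lingo3 (1.43%, against 7.75%). Genes of a single list were 30% of the members and 30.3% of all genes.

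As for all genes, most sites lay in genes with many sites. The genes with 10 or more sites were 7 of 26 members in cerebellum, 12 of 55 in hippocampus and 15 of 62 in cortex. They held 66.8% of the member sites in cerebellum, 67.1% in hippocampus and 72.5% in cortex. Among all genes, 308 of 2228 in cerebellum, 377 of 2547 in hippocampus and 526 of 3163 in cortex had as many. Those held 54.1%, 55.5% and 58.5% of the sites in the same regions. In cerebellum the 5 genes with the most sites held 108 of the 193 sites (56.0%), while in hippocampus they held 39.2% and in cortex 35.6%. At the other end, 8 of 26 members in cerebellum, 17 of 55 in hippocampus and 18 of 62 in cortex had a single site. Among all genes these were 799 of 2228 in cerebellum, 897 of 2547 in hippocampus and 1065 of 3163 in cortex.

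**Figure D1:**
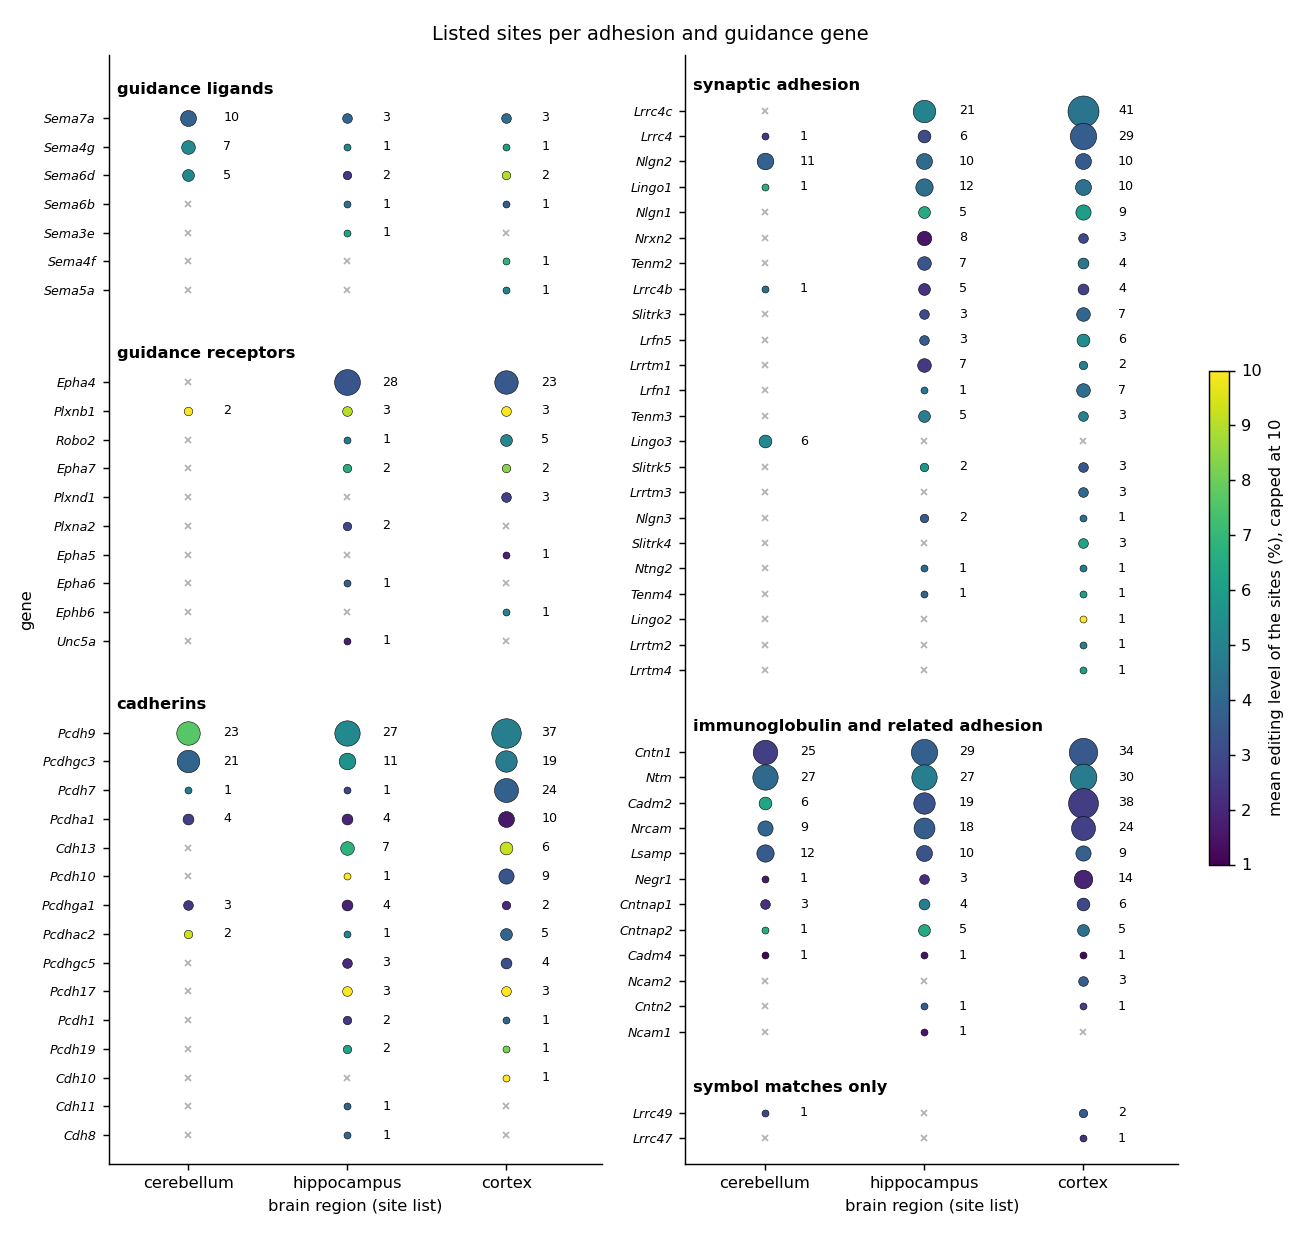
Each row is a gene and each column a region; the area of a circle and the number beside it give the listed sites, the colour gives their mean editing level in percent, capped at 10, and a cross marks a gene with no site. The crosses lie mostly in the cerebellum column, where 44 of 70 genes had no site, and Lingo3 is the gene with sites in cerebellum alone.

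Gene by gene, site numbers were compared as log2 ratios after 1 was added to each number, and a ratio of 2-fold or more was counted. By this rule a gene with 1 site against none also counts. Against hippocampus, cerebellum had 2-fold or more higher site numbers in 5 of 57 members with a site in either region (8.77%, against 23.6% of 3083 genes) and lower ones in 38 (66.7%, against 36.6%). Against cortex, cerebellum was higher in 4 of 63 members (6.35%, against 14.6% of 3536 genes) and lower in 48 (76.2%, against 49.5%). Hippocampus against cortex was higher in 9 of 69 members (13.0%, against 9.76% of 3442 genes) and lower in 23 (33.3%, against 36.2%). In both ratios with cerebellum the share of members with lower site numbers was above that of all genes, whereas between hippocampus and cortex the shares were near those of all genes.

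The lists differ in size, with 11391 sites in cerebellum, 13461 in hippocampus and 17878 in cortex, and hippocampus had fewer APOBEC1-YTHmut libraries than the other regions. With site numbers scaled to the list totals, cerebellum over hippocampus was higher in 6 and lower in 24 of 57 members (10.5% and 42.1%, against 24.4% and 17.5% of all genes). Cerebellum over cortex was then higher in 4 and lower in 28 of 63 members (6.35% and 44.4%, against 17.4% and 22.7%). Hippocampus over cortex was higher in 11 and lower in 12 of 69 (15.9% and 17.4%, against 11% and 12.6%). Lower cerebellar site numbers in the members were therefore seen on both scales, with smaller counts after scaling. The 1 added to each number was not scaled. A single site in the larger list against none in the smaller list thus no longer reached 2-fold, while the reverse still did. The smaller counts therefore hold this change of rule as well as the difference in list size. When only genes with 5 or more sites in either region were counted, a choice made after the data had been seen, cerebellum was lower than hippocampus in 14 of 25 members (56%, against 33.1% of all such genes) and higher in 4 (16%, against 20.4%). It was lower than cortex in 19 of 30 (63.3%, against 45.3%) and higher in 4 (13.3%, against 11.4%), so that with this filter the share of higher members over cortex was not below that of all genes.

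**Figure D2:**
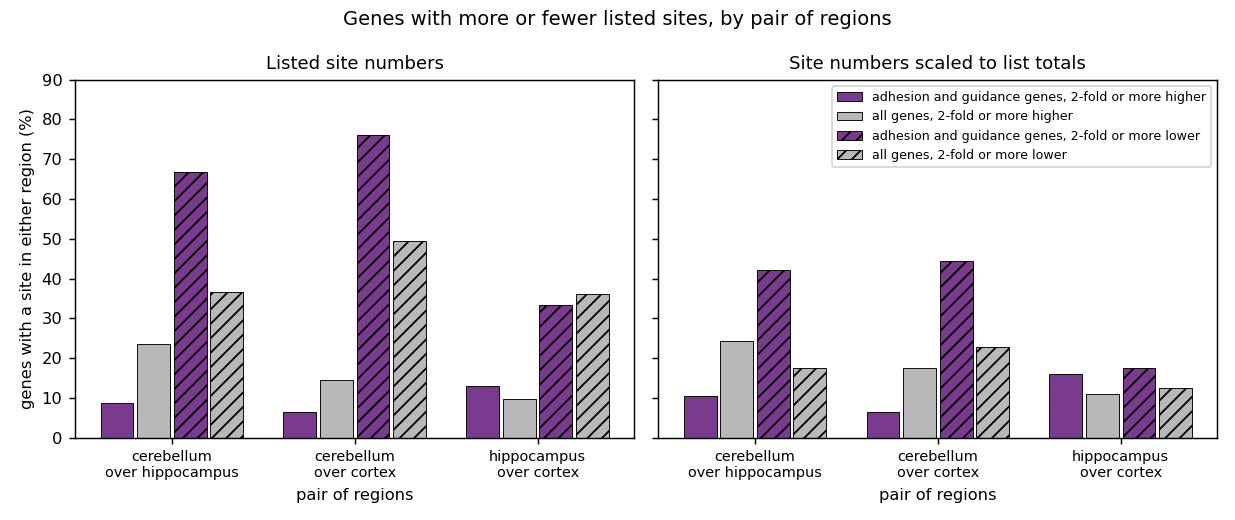
Bars give the percentage of genes whose site number was 2-fold or more higher (plain) or lower (hatched) in the first region of each pair, for adhesion and guidance genes (purple) and all genes (grey), with the listed numbers on the left and numbers scaled to list totals on the right. In both ratios with cerebellum the hatched purple bar is the tallest, at 66.7% and 76.2% for the listed numbers and 42.1% and 44.4% after scaling.

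The guidance ligands among the members were 7 semaphorins, and they had the most sites in cerebellum. By the number of genes listed they followed the order of the members as a whole, with the fewest in cerebellum. They held 22 sites in 3 genes in cerebellum, 8 in 5 genes in hippocampus and 9 in 6 genes in cortex. Sema7a, a membrane-anchored semaphorin that promotes axon growth, had 10 sites in cerebellum, 3 in hippocampus and 3 in cortex, and 6 of them were listed in cerebellum alone. Its highest site, at chr9:57962194 on the plus strand and 671 nt from the 3′ end, had a level of 14.1% in cerebellum, 5.71% in hippocampus and 5.71% in cortex. A second Sema7a site, at 57961895, had 8.04% in cerebellum, 2.84% in hippocampus and 4.04% in cortex. Both sites in every list were thus higher in cerebellum. A further 2 were shared with 1 region each and were lower in cerebellum, with 1.37% in cerebellum and 3.23% in hippocampus at 57961750, and 2.44% in cerebellum and 2.76% in cortex at 57962092. The sites in cerebellum alone lay between 1.13% and 3.26%.

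Sema4g, a transmembrane semaphorin, had 7 sites in cerebellum and 1 each in hippocampus and cortex. The site listed in every region, at chr19:45002879 and 518 nt from the 3′ end, had 9.89% in cerebellum, 5.17% in hippocampus and 6.06% in cortex. A neighbour 99 nt away had 9.88% in cerebellum and was in neither other list. Sema6d, a transmembrane ligand of plexins, had 5 sites in cerebellum, 2 in hippocampus and 2 in cortex, and none of its 7 positions was in every list. The remaining semaphorins had 1 site each at most per region: Sema6b in hippocampus and cortex at 4.17% and 3.57%, the secreted Sema3e in hippocampus at 6.25%, Sema4f in cortex at 6.82% and Sema5a in cortex at 4.88%.

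The guidance receptors showed the reverse order, with 2 sites in cerebellum, 38 in hippocampus and 38 in cortex over 10 genes. Most of these belong to Epha4, a receptor tyrosine kinase that binds ephrins of both classes, which had no site in cerebellum, 28 in hippocampus and 23 in cortex. Of its 32 positions, 19 were in both lists, with a mean level of 3.88% in hippocampus and 3.73% in cortex. They fell into separate stretches, up to 6527 nt from the 3′ end, and the highest, at chr1:77369527, had 9.29% in hippocampus and 9.52% in cortex. The receptor was therefore listed with nearly the same mean level in both forebrain regions and not at all in cerebellum. Single sites differed more. Of the 19, 2 were 2-fold or more higher in hippocampus and 3 were lower, against 7.37% and 8.17% of the shared sites of all genes.

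Plxnb1, a plexin and semaphorin receptor, was the one guidance receptor with a cerebellar site. It had 2 sites in cerebellum, 3 in hippocampus and 3 in cortex, and the site at chr9:109118046, 1869 nt from the 3′ end, had 25% in cerebellum, 13.2% in hippocampus and 21.4% in cortex. That was the highest member level in cerebellum. Its other site in every list, at 109119494, was instead lowest in cerebellum, with 5.56% in cerebellum, 9.76% in hippocampus and 11.4% in cortex.

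The other receptors had few sites. Robo2, a receptor for Slit proteins, had none in cerebellum, 1 in hippocampus and 5 in cortex, and the shared position had 4.65% in hippocampus and 8.33% in cortex. Epha7 had none in cerebellum and 2 in each of the other lists, with the shared site at 11.3% in hippocampus and 10.5% in cortex. Plxnd1, a receptor of Sema3e, had 3 sites in cortex alone, and Plxna2 had 2 in hippocampus alone. Single sites were listed for Epha6 and the netrin receptor gene Unc5a in hippocampus, and for Epha5 and Ephb6 in cortex, at levels between 1.75% and 4.94%.

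Cadherins, the calcium-dependent adhesion proteins, were 15 members in 3 families. The non-clustered protocadherins had 24 sites in cerebellum, 36 in hippocampus and 75 in cortex, the clustered ones 30, 23 and 40 in these regions, and the classical and other cadherins none in cerebellum, 9 in hippocampus and 7 in cortex. Pcdh9, a protocadherin gene of the first family, led them, with 23 sites in cerebellum (mean level 7.61%), 27 in hippocampus (5.23%) and 37 in cortex (4.84%). Its sites formed a pair of groups far apart along the genome. The group within 345 to 2069 nt of the 3′ end had 14 sites in cerebellum with a mean of 9.33%, 21 in hippocampus with 5.27% and 21 in cortex with 5.26%. The far group, 872099 to 876794 nt from the 3′ end and close to the start of the gene, had 9 sites in cerebellum with a mean of 4.93%, 6 in hippocampus with 5.07% and 16 in cortex with 4.28%. Higher cerebellar means were thus found in the group at the 3′ end, while the means of the far group were close to each other. These means cover different sets of sites, since 10 of the 32 positions in the group at the 3′ end were in every list. Cortical Pcdh9 sites also listed in cerebellum had a cortical mean of 6.33% (16 sites), against 3.70% (21 sites) for the others.

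Pcdh7, a related protocadherin gene, was listed almost wholly in cortex, with 1 site in cerebellum, 1 in hippocampus and 24 in cortex. It too had 2 groups: 11 positions at 411312 to 412230 nt from the 3′ end, all of them in cortex, and 13 at 136 to 3949 nt, all in cortex as well. Pcdh10 had no site in cerebellum, 1 in hippocampus at 10.5% and 9 in cortex between 1.36% and 5%. Pcdh17 had none in cerebellum and 3 in each of the other lists, and its site at chr14:84534917, 2648 nt from the 3′ end, had 35.9% in hippocampus and 55.9% in cortex, the highest member level in each of these lists.

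Among the classical and other cadherins, Cdh13, a cadherin anchored by a lipid rather than a membrane-spanning part, had no site in cerebellum, 7 in hippocampus and 6 in cortex. At the 6 shared positions the mean was 7.33% in hippocampus and 9.25% in cortex, and 5 of 6 were lower in hippocampus. Cdh10 had 1 site, in cortex, at 40.5%, which lies 29391 nt from the 3′ end. Cdh8 and Cdh11 had 1 site each, in hippocampus, at 4% and 3.8%. Levels of 35% or more were reached at 2 of 688 member sites, those in Pcdh17 and Cdh10, and at 284 of 25978 sites of all genes. By list they were 0% of the member sites in cerebellum, 0.276% in hippocampus and 0.382% in cortex. For all sites the shares were 1.48%, 0.973% and 1.33% in the same regions.

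The clustered protocadherins are made from a row of alternative first exons joined to shared constant exons, so that a read from the shared part cannot be assigned to 1 isoform. The sites listed under Pcdha1, 904 to 2539 nt from the 3′ end, and under Pcdhga1, 139 to 1577 nt from it, lie at the end that the isoforms of their cluster share. Pcdha1 had 4 sites in cerebellum, 4 in hippocampus and 10 in cortex, and Pcdhga1 had 3 in cerebellum, 4 in hippocampus and 2 in cortex. Pcdhgc3, whose sites lie 33091 to 34609 nt upstream of the 3′ end, had 21 sites in cerebellum (mean 3.90%), 11 in hippocampus (5.57%) and 19 in cortex (4.75%). All 11 of its hippocampal sites were also in the cerebellar list, so cerebellum had more sites at a lower mean level. Pcdhac2 had 2 sites in cerebellum, 1 in hippocampus and 5 in cortex and reached 12.9% in cerebellum, 5% in hippocampus and 8.70% in cortex at its shared site. Pcdhgc5 had no cerebellar site, 3 in hippocampus and 4 in cortex.

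The immunoglobulin and related adhesion genes, 12 in all, held the most cerebellar sites of any group, with 85 in cerebellum, 118 in hippocampus and 165 in cortex. Ntm, which encodes the IgLON protein neurotrimin, had 27 sites in cerebellum, 27 in hippocampus and 30 in cortex, and 24 of its 33 positions were in every list. Its mean levels were 4.03% in cerebellum, 4.81% in hippocampus and 4.72% in cortex. The highest, at chr9:28995415 on the minus strand, had 8.42% in cerebellum, 15.8% in hippocampus and 18.3% in cortex. Site number in Ntm was therefore nearly equal in the 3 lists.

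Cntn1, a contactin found at the junction of axon and myelin beside the node of Ranvier, had 25 sites in cerebellum, 29 in hippocampus and 34 in cortex, the most of any member over the 3 lists. Its mean levels were 2.66% in cerebellum, 3.74% in hippocampus and 3.50% in cortex, and 19 of its 42 positions were in every list. At chr15:92339706 the level was 5.86% in cerebellum, 16.3% in hippocampus and 16.3% in cortex. Cntnap1, its partner at that junction, had 3 sites in cerebellum, 4 in hippocampus and 6 in cortex, and the related Cntnap2 had 1 in cerebellum, 5 in hippocampus and 5 in cortex. Cntn2 was listed once each in hippocampus and cortex.

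The other genes of the group differed in their balance. Cadm2 had 6 sites in cerebellum, 19 in hippocampus and 38 in cortex, and the means ran the other way, at 6.29% in cerebellum, 3.29% in hippocampus and 2.59% in cortex. These means cover different sets of sites, since 3 of 46 positions were in every list. Cerebellum was higher at 4 of 4 positions shared with cortex and at 3 of 4 shared with hippocampus. The highest Cadm2 site, at chr16:66656158, had 8.75% in cerebellum, 13.9% in hippocampus and 5.56% in cortex. Nrcam, an adhesion protein of the L1 family, had 9 sites in cerebellum, 18 in hippocampus and 24 in cortex. Lsamp had 12 sites in cerebellum, 10 in hippocampus and 9 in cortex, yet 2 of its 22 positions were in every list, so similar numbers came from largely separate positions. Its IgLON relative Negr1 had 1 site in cerebellum, 3 in hippocampus and 14 in cortex. Cadm4 had 1 site in each region, at 1.14% to 1.44%, while Ncam1 had 1 site in hippocampus and Ncam2 had 3 in cortex.

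Synaptic adhesion genes were the largest group, with 24 members, 29 sites in cerebellum, 130 in hippocampus and 186 in cortex. Nrxn2, a presynaptic neurexin, had no site in cerebellum, 8 in hippocampus and 3 in cortex. Among postsynaptic partners of neurexins, Nlgn2, the neuroligin of inhibitory synapses, had 11 sites in cerebellum, 10 in hippocampus and 10 in cortex, with 6 of 14 positions in every list. Its highest level was at chr11:69825641, with 9.15% in cerebellum, 13.3% in hippocampus and 7.50% in cortex. Nlgn1, found at excitatory synapses, had none in cerebellum, 5 in hippocampus and 9 in cortex, and Nlgn3 had none in cerebellum, 2 in hippocampus and 1 in cortex. The 2 leading partners thus differed, with Nlgn2 listed evenly and Nlgn1 missing from cerebellum.

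The genes for netrin-G ligand proteins, postsynaptic partners of the netrin-G proteins, were listed mostly in cortex. Lrrc4c had no site in cerebellum, 21 in hippocampus and 41 in cortex, and all 21 hippocampal positions were among the cortical ones. At chr2:97629429 its level was 13.4% in hippocampus and 12.4% in cortex. Lrrc4 had 1 site in cerebellum, 6 in hippocampus and 29 in cortex, and Lrrc4b had 1 in cerebellum, 5 in hippocampus and 4 in cortex. Ntng2, which encodes netrin-G2, had 1 site in hippocampus and 1 in cortex, at different positions.

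The 3 Lingo genes had 3 different patterns. Lingo1, a component of the Nogo receptor complex, had 1 site in cerebellum, 12 in hippocampus and 10 in cortex, and at chr9:56619077 the level was 6.67% in cerebellum, 10.5% in hippocampus and 13.0% in cortex. Lingo3 had 6 sites in cerebellum, at 2.82% to 9.68% and 179 to 1375 nt from the 3′ end, and none elsewhere. Lingo2 had 1 site, in cortex, at 10%.

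None of the teneurin, Lrfn, Lrrtm and Slitrk members had a site in cerebellum. The teneurins, which bind latrophilins across the synapse, had 13 sites in hippocampus and 8 in cortex, led by Tenm2 with 7 in hippocampus and 4 in cortex. The Lrfn genes had 4 sites in hippocampus and 13 in cortex, of which Lrfn5 held 3 in hippocampus and 6 in cortex. The Lrrtm genes, whose proteins bind neurexins, had 7 sites in hippocampus, all in Lrrtm1, and 7 in cortex, spread over Lrrtm1, Lrrtm2, Lrrtm3 and Lrrtm4. The Slitrk genes had 5 sites in hippocampus and 13 in cortex, of which Slitrk3 held 3 in hippocampus and 7 in cortex. Lrrc47 and Lrrc49, which share only the first letters of their symbols with the netrin-G ligand genes, had 1 site in cerebellum, none in hippocampus and 3 in cortex together.

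Editing levels of the members were low and, taken over each list, near those of all genes. The median was 3.40% in cerebellum, 3.23% in hippocampus and 3.01% in cortex for the members, and for all genes it was 3.36% in cerebellum, 2.82% in hippocampus and 2.91% in cortex. Levels of 10% or more were found at 9 member sites in cerebellum (4.66%, against 8.99% of all sites), 24 in hippocampus (6.63%, against 6.14%) and 24 in cortex (4.59%, against 6.54%). High levels thus took a smaller share of the member sites than of all sites in cerebellum and cortex, and a similar one in hippocampus.

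A site was shared when chromosome, position and strand were the same. In every list stood 106 of the 688 member sites (15.4%), against 19% of all sites. Of the cerebellar member sites, 61.1% were also listed in hippocampus and 69.4% in cortex, against 49.9% and 58.2% of all cerebellar sites. Of the hippocampal member sites, 67.4% were also in cortex, against 69.7% of all. The few sites that the members had in cerebellum were therefore shared more often than those of all genes, and 47 of 193 (24.4%) were in cerebellum alone, against 35.3% of all cerebellar sites. Single genes weigh on these shares. Ntm had 24 of 27 cerebellar sites also in hippocampus and 25 in cortex, and Cntn1 20 and 22 of 25. Without Cntn1 the member shares were 58.3% in hippocampus and 66.7% in cortex, and shares without both genes were not computed.

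At shared sites the level was compared as a log2 ratio. Cerebellum was 2-fold or more higher than hippocampus at 14 of 118 shared member sites (11.9%, against 15.2% of 5688 shared sites of all genes) and lower at 20 (16.9%, against 11.4%). Against cortex it was higher at 11 of 134 (8.21%, against 15.1% of 6627) and lower at 20 (14.9%, against 12%). Hippocampus was higher than cortex at 16 of 244 (6.56%, against 7.37% of 9379) and lower at 18 (7.38%, against 8.17%). With the listed levels, more member sites were lower than higher in cerebellum and more sites of all genes were higher than lower. For the members this rests in part on Cntn1. Without that gene, cerebellum was higher at 12 and lower at 13 member sites over hippocampus, nearly equal numbers, and higher at 10 and lower at 15 over cortex. With neighbours within 10 nt merged, cerebellum was higher at 12 and lower at 19 over hippocampus, and higher at 12 and lower at 14 over cortex. After the lists were scaled to the same median level, all genes also had more lower than higher sites, with 9.99% higher and 17.9% lower over hippocampus and 11% higher and 17.1% lower over cortex, against 7.63% and 26.3%, and 5.22% and 19.4%, of the member sites.

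The median log2 ratio of the member sites was -0.14 for cerebellum over hippocampus, with an SD of 0.89 between sites, and 0.04 for all genes. For cerebellum over cortex it was -0.16, with an SD of 0.82, and 0.06 for all genes. For hippocampus over cortex it was -0.05, with an SD of 0.70, and -0.02 for all genes. With 1 value per gene the medians were 0.07, 0.09 and -0.06 in the same order for the members and 0.10, 0.10 and -0.01 for all genes, so both ratios with cerebellum changed sign in the members. Over member sites without Cntn1 the median was -0.08 for cerebellum over hippocampus and -0.03 for cerebellum over cortex.

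**Figure D3:**
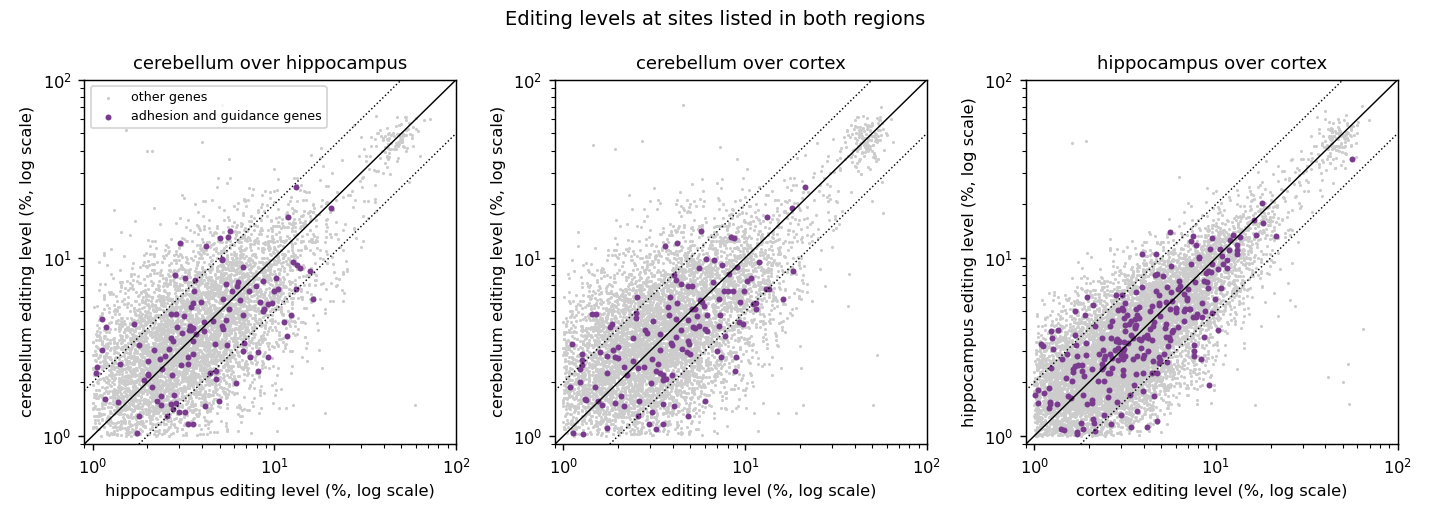
Each point is a site listed in both regions of a pair, with its editing level in percent in the first region on the vertical axis and in the second on the horizontal axis, both logarithmic; purple points are adhesion and guidance genes, grey points other genes, the solid line marks equal levels and the dotted lines 2-fold differences. The purple points number 118, 134 and 244 from left to right and spread on both sides of the line, and the group of grey points near 50% on both axes holds hardly any of them.

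Single genes differed in the direction of their shared sites. Cntn1 was lower in cerebellum at 18 of 22 positions shared with cortex, with means of 2.82% in cerebellum and 4.39% in cortex and a median of -0.53, and at 13 of 20 shared with hippocampus, with a median of -0.60. Pcdhgc3 was lower at 12 of 15 positions shared with cortex (median -0.37), and Ntm at 16 of 25 (median -0.21), and their medians over hippocampus were -0.32 and -0.23. These 3 genes thus had lower levels in cerebellum in both comparisons. Scaling the lists to the same median level lowers every ratio with cerebellum, so it could not have changed this direction.

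Pcdh9 showed the other direction. It was higher in cerebellum at 11 of 16 positions shared with cortex, with means of 8.29% in cerebellum and 6.33% in cortex and a median log2 ratio of 0.41, and at 8 of 12 shared with hippocampus, with means of 9.60% in cerebellum and 7.44% in hippocampus and a median of 0.45. The largest ratios were at chr14:93015156, with 12.1% in cerebellum, 3.01% in hippocampus and 4.23% in cortex, and at 93015420, with 11.7% in cerebellum, 4.20% in hippocampus and 3.64% in cortex. Between them lies 93015161, the highest site of the gene, with 19.1% in cerebellum, 20.4% in hippocampus and 18% in cortex, so neighbouring cytidines of 1 stretch did not share 1 ratio. Nrcam and Nlgn2 had positive medians over cortex, 0.45 and 0.27, whereas their medians over hippocampus, 0.07 and 0.19, became -0.18 and -0.07 after the lists were scaled to the same median level.

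Between hippocampus and cortex the gene medians were closer to 0. The lowest were -0.48 in Cdh13, -0.28 in Cadm2, -0.28 in Lrrc4 and -0.27 in Pcdh9, while Lingo1 had 0.16. Epha4 had 0.04 over 19 sites and Ntm 0.02 over 26. In Lrrc4 the site at chr6:28829755 had 1.94% in hippocampus and 9.17% in cortex, the lowest ratio of all members at -2.24. It was the one member site that differed by more than 4-fold between these regions.

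**Figure D4:**
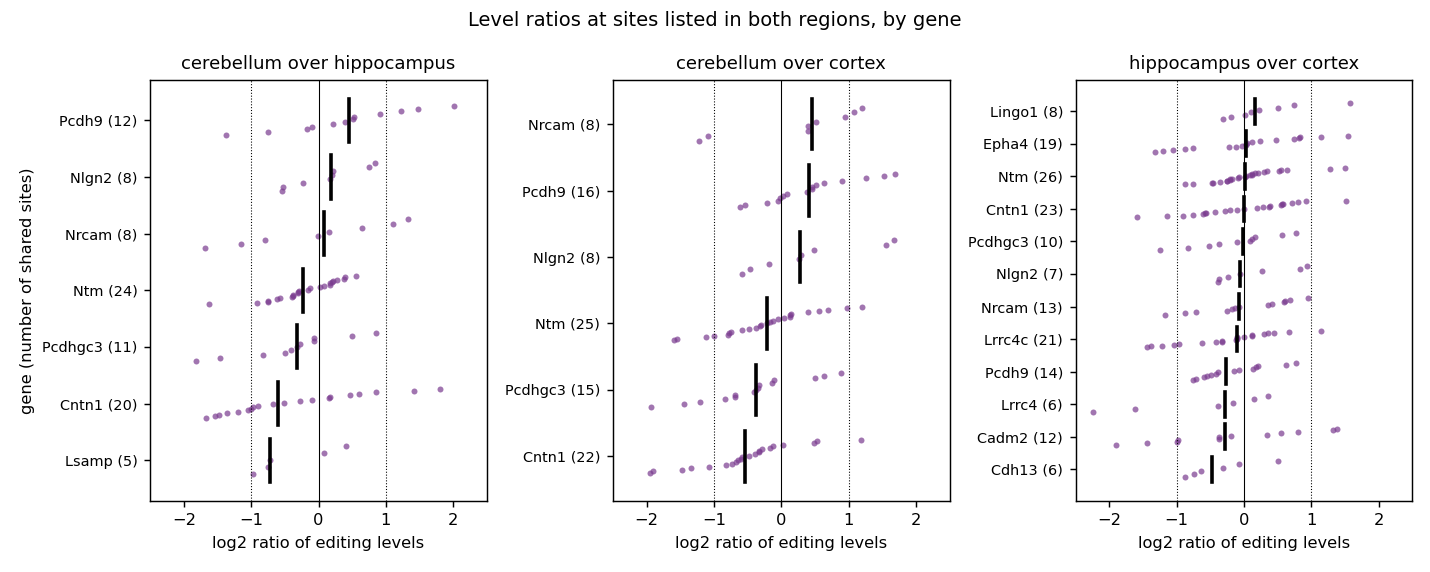
Each point is a shared site, placed by its log2 ratio of editing levels, with genes of 5 or more shared sites in rows, their number of sites in parentheses, and a bar at the median; dotted lines mark 2-fold. In both panels with cerebellum Cntn1 lies to the left of 0, with medians of -0.60 over hippocampus and -0.53 over cortex, and Pcdh9 to the right of 0 with 0.45 and 0.41.

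The same nucleotides recurred in tight stretches. A neighbouring site no more than 50 nt away was listed for 403 of the 688 member sites (58.6%, against 59.3% of all sites), and for 84.9% of the member sites in every list, against 76.9% of such sites of all genes. Runs of 5 or more sites with gaps of at most 50 nt numbered 22, in 12 genes, with 151 sites. Of these runs, 11 had a site in every list, and the other 11 had none in cerebellum. No such count over all genes is given here, so whether this split is particular to the members cannot be said.

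The longest run was in Cntn1, chr15:92339599-92339875, with 14 positions, of which 9 were listed in cerebellum at a mean of 3.56%, 12 in hippocampus at 4.59% and 12 in cortex at 5.09%. In Ntm, chr9:28994981-28995074 held 8 positions, all 8 in every list, at means of 5.11% in cerebellum, 5.40% in hippocampus and 5.80% in cortex. In Pcdh9, chr14:93015024-93015161 held 9 positions with 8 in each list, at means of 9.45% in cerebellum, 7.11% in hippocampus and 7.26% in cortex. The sites in every list were 9 of 14 in the Cntn1 run, 8 of 8 in the Ntm run and 7 of 9 in the Pcdh9 run. Other runs were absent from cerebellum: Lrrc4 had a run of 11 positions, with 4 in hippocampus and 11 in cortex, and Lrrc4c one of 8, with 4 in hippocampus and 8 in cortex.

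Member sites lay farther from the end of the gene than those of all genes. The median distance to the annotated 3′ end, along the genome, was 2065 nt for the members and 1518.5 nt for all genes, and 72.3% of member sites lay within 5 kb, against 87.0%. By region the member medians were 1644 nt in cerebellum, 1908.5 nt in hippocampus and 2090 nt in cortex, against 1393 nt in cerebellum, 1451 nt in hippocampus and 1574 nt in cortex for all genes. Member sites in every list had a median of 1487.5 nt. The distance is measured over introns as well, and it depends on which 3′ end is annotated.

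**Figure D5:**
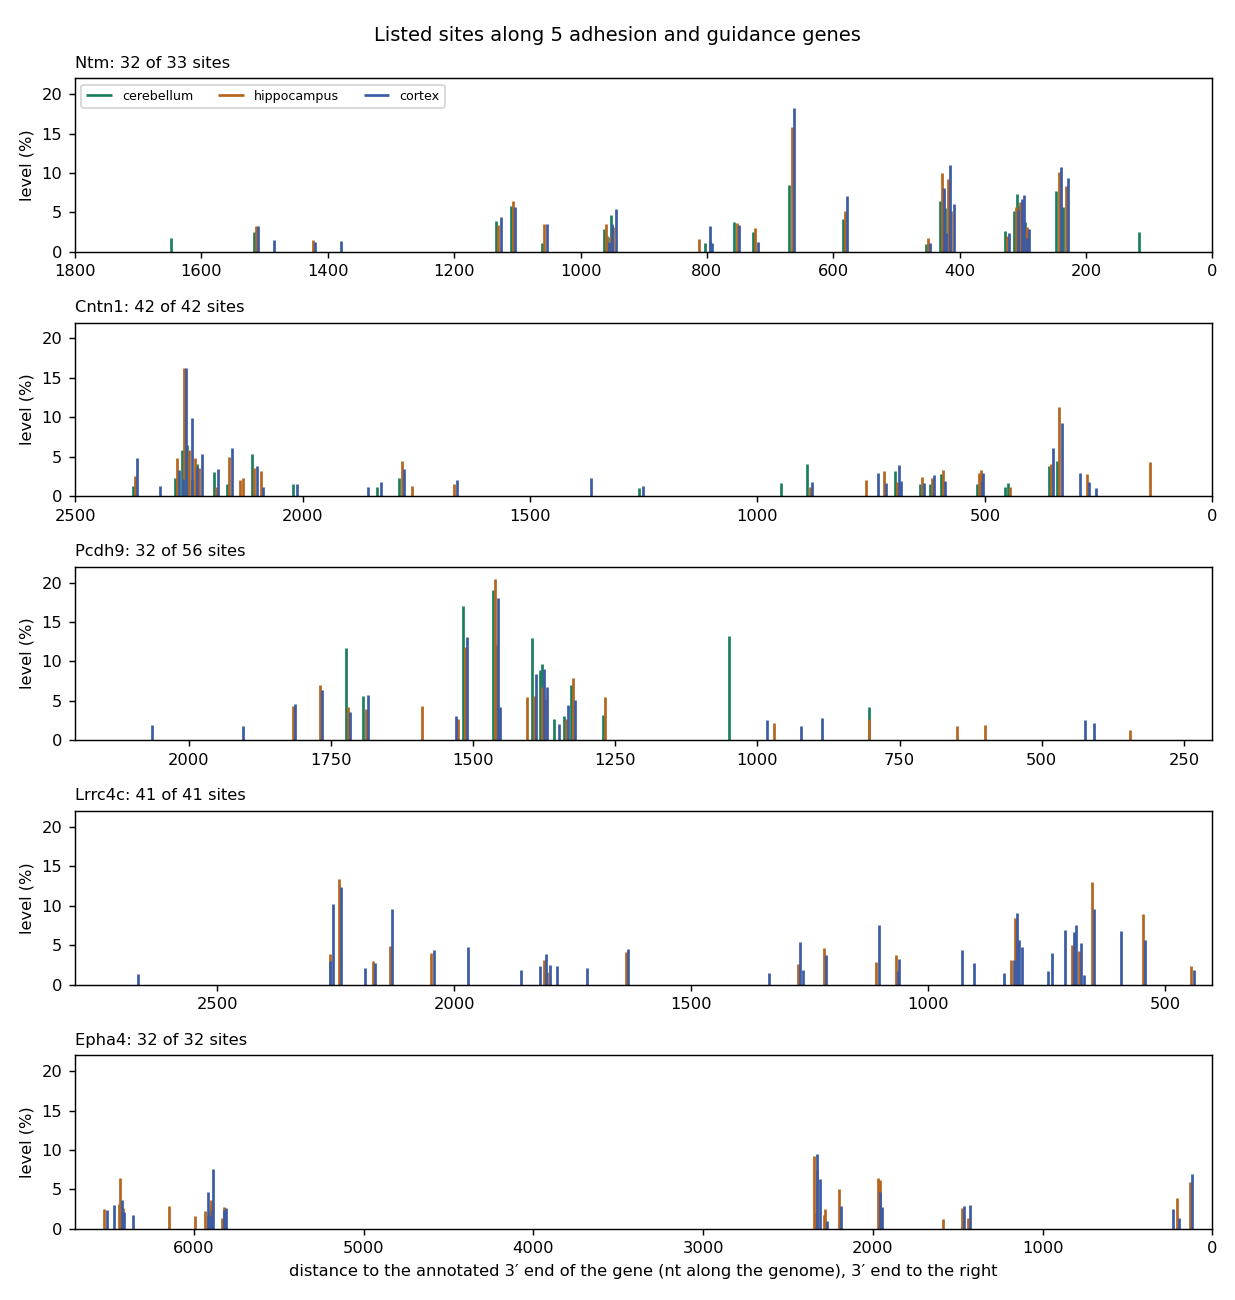
Each vertical line is a listed site, placed by its distance to the annotated 3′ end (nt along the genome, 3′ end to the right) with its editing level in percent as height; lines of the regions at 1 position are drawn side by side, and the far group of Pcdh9 and 1 site of Ntm lie outside the drawn range. Ntm, Cntn1 and Pcdh9 have lines of every region in the same stretches, and Lrrc4c and Epha4 have no line of cerebellum.

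Cortical levels were compared between sites that were also in the cerebellar list and sites that were not. Cortical member sites that were also in cerebellum had a median cortical level of 4.11% (134 sites), against 2.78% for those that were not (389 sites), and for all genes the values were 3.60% and 2.59%. In Ntm these medians were 4.44% (25 sites) and 1.22% (5 sites), in Cntn1 3.41% (22) and 1.79% (12), and in Pcdh9 5.10% (16) and 2.67% (21). No site below 1% was listed for any gene. Of the 13 genes with 10 or more cortical sites and both kinds of site, 9 had the higher median where the site was also in cerebellum and 4 the lower. The 4 were Lrrc4, with 2.56% (1 site) and 3.02%, Pcdh7, with 3.79% (1 site) and 4.05%, Negr1, with 1.32% (1 site) and 1.88%, and Pcdha1. Lingo1, among the 9, also had 1 such site, at 13.03%. Lrrc4c, with a median of 3.88% over 41 cortical sites, and Epha4, with 2.82% over 23, had none in the cerebellar list.

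By level, 11.2% of cortical member sites between 1% and 2% were in every list, 16.8% of those between 2% and 5%, 32.1% of those between 5% and 10%, and 54.2% of those at 10% or more. For all genes the shares in the same classes were 14.9%, 26.9%, 40.9% and 54.4%. In cortex the members were thus shared less often than all genes below 10% and about equally above it. The cerebellar member sites were shared more often in every class, for instance 36.6% against 30.8% between 1% and 2% and 54.8% against 41.5% between 2% and 5%, and the hippocampal ones less often in every class, with 58.3% against 70.5% at 10% or more.

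Partners of these proteins were read from a list of 83 other genes, of which 40 had a site. Of the 40, 25 (62.5%) were listed in cerebellum, 30 (75%) in hippocampus and 36 (90%) in cortex, near the shares of all genes, which were 59.7%, 68.3% and 84.8%. They held 114 sites in cerebellum, 243 in hippocampus and 306 in cortex. Among relatives of the L1 and IgLON proteins, Chl1 had 5 sites in cerebellum, 23 in hippocampus and 25 in cortex, and Opcml had 2, 24 and 28 in the same regions. Among cadherin partners and relatives, the atypical cadherin gene Celsr2 had 13 sites in cerebellum, 28 in hippocampus and 32 in cortex, and Clstn1, a calsyntenin, had 8, 15 and 14 in the same regions. The 7 such genes with a site were listed in every region.

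Partners at the synapse included Adgrl1, a latrophilin that binds teneurins and neurexins, with 4 sites in cerebellum, 20 in hippocampus and 26 in cortex. Cbln2, a secreted bridge between neurexins and postsynaptic receptors, had 19 sites in cortex and none in the other lists. In guidance signalling, Srgap3, which acts downstream of Robo, had 15 sites in cerebellum, 26 in hippocampus and 29 in cortex, and the small GTPase gene Rac1 had 13, 21 and 16 in the same regions. Among guidance co-receptors and inhibitors Rtn4, which encodes Nogo, had 9 sites in cerebellum, 7 in hippocampus and 4 in cortex, and Omg had 3, 4 and 6 in the same regions. Of the genes named from this list, Rtn4 was the one with more sites in cerebellum than in either other region.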

How the data were processed

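Poly(A) RNA libraries started from 900 ng of total RNA, per the labels' protocols. STAR 2.7.5 and mm10 are named as aligner and build in the submitters' processing notes. APOBEC1-YTHmut libraries served as the background when sites were called, per the labels. For the site caller, its thresholds and its depth minimum, and for how libraries were combined, the answer is not given in the sources used here. The value that the authors deposited per site is a fraction, read here as edited over all reads and printed as percent; this reading is an assumption. Depth per library is unknown.

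Members were selected by symbol, their families and roles were assigned by symbol, and sites were matched between lists by chromosome, position and strand. Gene spans came from the RefSeq table of GRCm38.p6, which held all 70 members; exons and untranslated regions were not used here. The members, the partner list and the marker list were chosen with earlier results of these data known. Genes named in the text are, per region, 8 chosen by site number, 5 by the level of their highest site and up to 5 with sites in that region alone. They are further the 3 with the most sites per family, the 4 highest and lowest gene medians over 5 or more shared sites, and the 3 largest and smallest single ratios per pair. From the partner list the 2 genes with the most sites per class are named. Some genes that the rules name are not reported or drawn here. Other members were named for completeness after their values were seen. No test was made, since each region has 1 value per site, and 2-fold or more was the limit for a counted difference. The counting was tested on simulated data.

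Alternatives were a 5% minimum, leaving out sites at 35% or more, leaving out Slitrk genes and symbol-only matches, leaving out Cntn1, merging or sharing within 10 nt, scaling, 1 value per gene, a 1.5-fold limit and a pseudocount of 0.5. Counting only genes with 5 or more sites was added after the data had been seen. Computation was in Python 3.11.15 with pandas 2.3.3 and numpy 2.4.6, and figures were drawn with matplotlib 3.10.9.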

Additional observations from a re-analysis of the deposited data

How the results depend on the processing

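Of 140 alternative values for 25 results under 12 settings, 103 stayed close to the reported value and 37 moved. A count was called close within 1.5-fold of the reported one. A share or median was called close inside a 95% interval that took sites as independent, which does not measure the spread between animals. The median for cerebellum over hippocampus thus counted as close with 1 value per gene, although it went from -0.14 to 0.07. Merging neighbours, leaving out sites at 35% or more, leaving out Slitrk genes and symbol-only matches, and a pseudocount of 0.5 moved no value by this rule. Merging still changed counts of shared sites. For cerebellum over cortex, 11 higher and 20 lower became 12 and 14. For hippocampus over cortex, 16 higher and 18 lower became 14 and 12. With sites at 5% or more only, member sites numbered 59 in cerebellum, 92 in hippocampus and 133 in cortex, with 17 genes in cerebellum and 29 in hippocampus, and 59.3% of cerebellar sites were also in cortex. Shared sites 2-fold or more higher and lower then numbered 3 and 1 for cerebellum over hippocampus, the reverse order of the 14 and 20 without this minimum. They numbered 1 and 5 for cerebellum over cortex, and 1 and 0 for hippocampus over cortex. Genes with more sites numbered 3 for cerebellum over hippocampus and 4 for hippocampus over cortex, and genes with fewer sites 17 for cerebellum over hippocampus and 29 for cerebellum over cortex. With the 5% minimum no such counts were made over all genes, so whether they are particular to the members cannot be said. Sharing within 10 nt put 72.9% of hippocampal sites in cortex. Without Cntn1, 13 shared sites were lower and 12 higher in cerebellum than in hippocampus. A 1.5-fold limit gave 24 higher and 37 lower for cerebellum over hippocampus (20.3% and 31.4%, all genes 27.6% and 23.2%), 28 and 40 for cerebellum over cortex (20.9% and 29.9%, all genes 28.5% and 23.5%), and 42 and 52 for hippocampus over cortex (17.2% and 21.3%, all genes 19% and 20.2%). Site numbers scaled to list totals gave fewer sites in 24, 28 and 12 genes for the same pairs. Only genes with 5 or more sites gave fewer in 14, 19 and 9 genes, and more in 2 genes for hippocampus over cortex. The 9 and 2 were 29% and 6.45% of 31 members, against 24.4% and 2.87% of all such genes. With 1 value per gene the median for cerebellum over cortex was 0.09, a change of sign whose cause was not tested. Scaling the lists to the same median level gave medians of -0.40 for cerebellum over hippocampus and -0.36 for cerebellum over cortex, where all genes had -0.21 and -0.15. It also gave 9 higher and 31 lower sites for cerebellum over hippocampus (7.63% and 26.3%, all genes 9.99% and 17.9%) and 7 higher and 26 lower for cerebellum over cortex (5.22% and 19.4%, all genes 11% and 17.1%). Depth limits every count, since a site absent from a list cannot be told apart from a site with too few reads, and the spread between animals is unknown. No paired analysis was possible because each region has 1 list and no value per animal.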
